A study of Mus musculus with 12 samples.

Results

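The heat response common to brain and liver was described from the read counts of all 12 libraries of the series, as the effect of heat stress (HS) against control (CO) in a single model with tissue as a covariate. Of the 25239 genes in the count table, 14806 had enough counts to be tested in brain and 12296 in liver, and the 11322 genes that met the filter in each tissue were the ones compared. The mice were aged wild-type males of the C57BL/6J strain, 24 months old. The brain heat stress and liver heat stress groups came from mice kept at 40 °C and 60% relative humidity for 3 h a day over 15 days, and the brain control and liver control groups from mice without that exposure, with 3 libraries in each group. The strain and age are common to all groups, RNA came from small pieces of frozen tissue with no brain region named, and the methods give 3 animals a group, so brain and liver libraries may come from the same mice. The labels do not say which belong together, and the additive fit counts the 6 libraries a side as independent. In such bulk libraries fewer cells of a type and less RNA per cell cannot be told apart.

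The endoplasmic reticulum (ER) folds secreted and membrane proteins, and the unfolded protein response adjusts the amount of its chaperones to the folding load through the sensors Ire1, Perk and Atf6. The cytosol has its own chaperones of the Hsp70, Hsp90 and Hsp110 families, whose genes are induced by heat shock factor 1 during acute heat. Rbm3 and Cirbp are RNA-binding proteins known for being induced by mild cold. The liver makes large amounts of secreted plasma proteins and is rich in ER, while the circadian clock, the metallothioneins and the glucocorticoid-responsive genes operate in both organs.

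Total counts ranged from 10466198 to 15609040 per library. Correlations between log2 CPM (counts relative to the library's normalized total) of libraries of the same group lay between 0.959 and 0.987. Brain markers (Snap25, Syt1, Gfap, Mbp, Slc17a7) summed to 9150 to 11200 CPM in brain and to 13.3 to 39.5 CPM in liver, and 5 liver markers summed to at least 71700 CPM in every liver library. In brain, Alb was at 0.589 to 9.6 CPM, while Ttr, which the choroid plexus also makes, was at 1450, 1110 and 2420 CPM in controls and 590, 1060 and 228 CPM after heat stress. Liver control replicate 1 and liver heat stress replicate 2 stood apart, with 8 skeletal muscle markers summing to 321 and 2050 CPM against 1.15 to 6.08 CPM in the other liver libraries. Liver control replicate 2 and liver heat stress replicates 1 and 3 carry the suffix 2nd in their column names, which no source explains.

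The design asks which genes respond to periodic heat in the same way in organs as different as brain and liver. With edgeR, and p-values adjusted by Benjamini and Hochberg's method over the 11322 genes, none passed an adjusted p under 0.05 (0 higher, 0%, and 0 lower, 0%), and the smallest adjusted p was 0.0638, reached by Pdia4, Rbm3, Hspa5 and Paqr9. At an unadjusted p under 0.05, 447 genes (3.95%) were higher and 509 (4.5%) were lower. DESeq2 on the same libraries, with the same threshold on its adjusted p, called 7 genes higher (0.0618%) and 17 lower (0.15%). The 7 were Rbm3, Cirbp, Mt2, Mt1, Dbp, Bhlhe41 and Cebpb. The 17 were led by Pdia4, Hspa5, Paqr9, Hyou1, Mdn1, Sdf2l1 and Hsph1, and 7 of them belong to the ER chaperone list.

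Most genes did not move together. Only 46.1% of the 11322 genes had the same sign of effect in brain and liver, and across genes, which are not independent replicates, the correlation of the brain and liver log2 fold changes was -0.0584 (Pearson) and -0.0901 (Spearman). The log2 fold change followed transcript GC content in opposite directions (Spearman -0.330 in brain and 0.295 in liver). It followed transcript length in the same direction (-0.407 and -0.101). The part of these trends in the values above was not tested. Tested in each tissue on its own at an unadjusted p under 0.05, 20 genes were higher in both tissues (0.177%), 36 were lower in both (0.318%) and 47 went in opposite directions. The 36 lower genes were 2.76% of the genes lower in brain, and 2.76% of all genes tested were lower in liver. The 20 higher genes were 1.51% of those higher in brain, against 2.74% of all genes tested that were higher in liver. Groups did not overlap in brain nor in liver for 60 genes higher in both (0.53%), 73 lower in both (0.645%) and 122 of opposite direction.

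**Figure D1:**
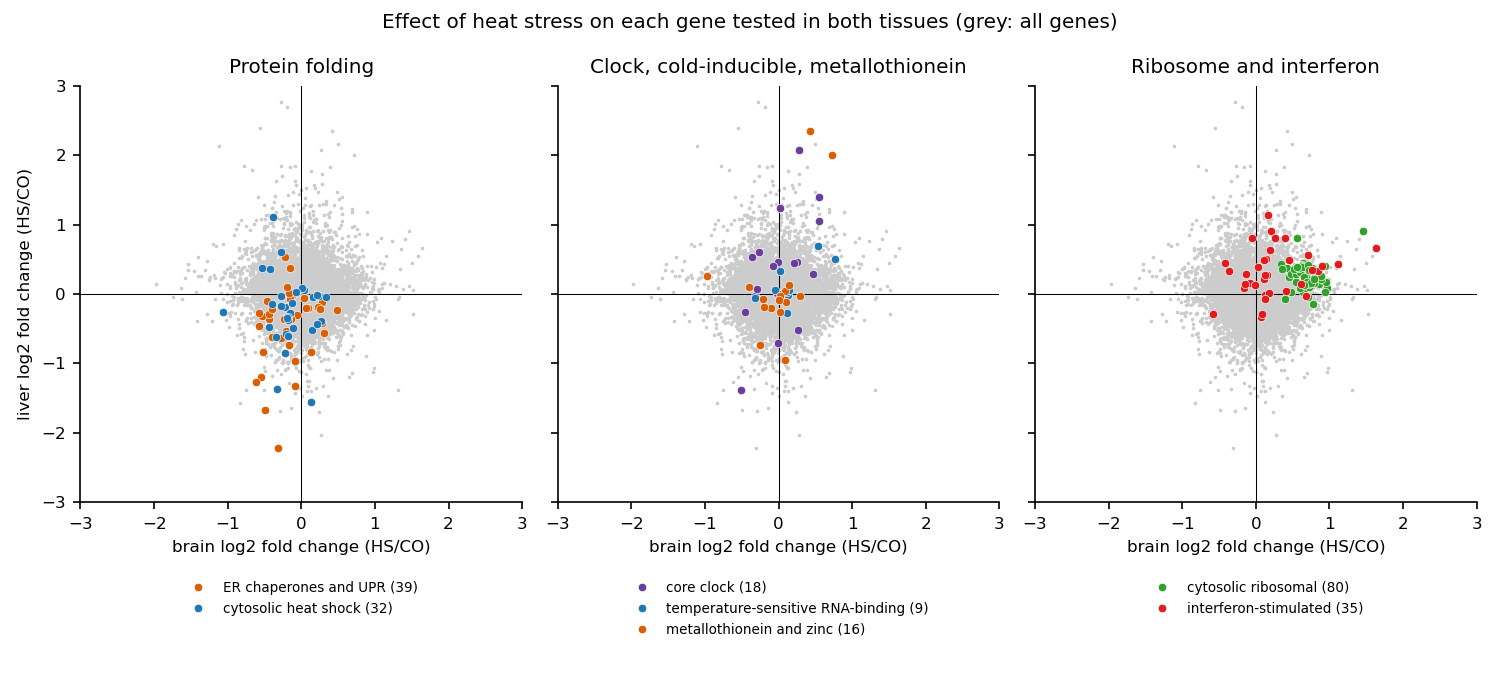
Log2 fold change of heat stress against control in brain (x axis) and in liver (y axis) for each of the 11322 genes (grey points), with members of 7 gene lists in colour and the number of members tested in brackets. The grey cloud has little slope (Pearson -0.0584), 24 of the 39 ER genes lie in the lower left part, and 77 of the 80 ribosomal protein genes lie in the upper right part with larger values in brain.

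The clearest shared pattern was a lower level of ER chaperones. Of 39 members of the list of ER chaperones and unfolded protein response genes tested, 19 (48.7%) were lower and 0 higher at an unadjusted p under 0.05 in the additive fit, against 4.5% of all genes lower. The median log2 fold change of the list was -0.287 in the additive fit, -0.163 in brain and -0.303 in liver, while the median over all genes was -0.00357, -0.0019 and 0.0105. At this threshold 12 members were lower and 2 higher in brain on its own, where 11.5% and 11.7% of all genes were. In liver 12 were lower and 1 higher, where 2.76% and 2.74% were. In 24 members the effect was below 0 in both tissues, as in 22.4% of all genes, and 6 were lower at an unadjusted p under 0.05 in each tissue, against 0.318% of all genes. In 9 the groups did not overlap in either tissue, where 0.645% of all genes were lower in this way. Averaged over the 39 genes as the log2 difference from the control mean of the tissue, the brain heat stress libraries stood at -0.156, -0.194 and -0.167 and the brain control libraries between -0.0219 and 0.0198. The liver heat stress libraries stood at -0.483, -0.533 and -0.312 and the liver control libraries between -0.0715 and 0.0573, so that the groups were apart in each tissue. Without the 2 liver libraries that carry muscle transcripts, 20 of the 39 members were lower, against 6.02% of all genes in that fit.

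Hspa5 (chromosome 2, 34771970 to 34777547 in GRCm38, plus strand), which encodes BiP, the Hsp70 of the ER lumen and the partner that holds the stress sensors inactive, had 249.8, 287 and 246 CPM in the brain control libraries and 188, 169.5 and 173 CPM in the brain heat stress libraries. In liver, where the level is higher, the controls had 1827, 2045 and 1553 CPM and the heat stress libraries 727, 746 and 891 CPM. The highest heat stress library lay below the lowest control library in both tissues. The additive log2 fold change was -0.88 ± 0.14 (SE, 6 libraries a side, adjusted p = 0.0638 by edgeR), with -0.55 ± 0.12 in brain and -1.19 ± 0.20 in liver. Across the 29 alternative settings its additive effect stayed between -0.954 and -0.802.

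Pdia4 (chromosome 6, 47796141 to 47813430, minus strand), a protein disulfide isomerase that forms and reshuffles disulfide bonds, had the smallest p of all genes. Its level was 38.9, 42.1 and 42.9 CPM in brain controls and 29.8, 27.5 and 28.7 CPM in brain heat stress libraries, and 410.3, 332 and 345 CPM in liver controls against 186, 212 and 211 CPM in liver heat stress libraries. All heat stress libraries were below all controls of the same tissue, and the additive log2 fold change was -0.69 ± 0.10 (adjusted p = 0.0638, edgeR). The effect was -0.52 ± 0.10 in brain and -0.83 ± 0.17 in liver, a difference of -0.31 ± 0.18 (adjusted p = 0.494 for the interaction, edgeR).

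Hyou1, the ER member of the Hsp110 family and a nucleotide exchange factor of BiP, had 104, 80.2 and 86.3 CPM in brain controls and 60.3, 50.9 and 63.9 CPM after heat stress. The liver values were 329, 198 and 189.7 CPM in controls and 82.3, 95.6 and 118 CPM in heat stress libraries, and liver control replicate 1, one of the libraries with muscle transcripts, was the highest. The additive log2 fold change was -0.95 ± 0.17 (adjusted p = 0.0974, edgeR), and leaving out single libraries gave -1.03 to -0.781. Sdf2l1, which holds BiP and its J-protein partners together, had 8.06, 9.56 and 10.4 CPM in brain controls and 7.28, 5.64 and 6.88 CPM in brain heat stress libraries, and 82.5, 141 and 73.1 CPM in liver controls against 34, 27.4 and 32.3 CPM. Its effect was -0.49 ± 0.18 in brain and -1.67 ± 0.26 in liver, a difference of -1.17 ± 0.33 (adjusted p = 0.336 for the interaction, edgeR).

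The co-chaperone Dnajb11 (ERdj3) was at 47.6, 45.2 and 46.8 CPM in brain controls and 38.7, 37.1 and 39.3 CPM in brain heat stress libraries, and at 213, 222 and 205 against 129, 120.4 and 161 CPM in liver. Sel1l, the adaptor of the ubiquitin ligase that removes misfolded proteins from the ER, was at 174, 142 and 147 against 109.9, 108 and 122 CPM in brain and at 210.3, 186 and 180.3 against 135, 147 and 165 CPM in liver. Both genes were named for groups that did not overlap, and their additive log2 fold changes were -0.46 ± 0.10 and -0.41 ± 0.096. The other members lower at an unadjusted p under 0.05 were Creld2, Pdia6, Calr, Dnajc3, Pdia3, Uggt1, Hsp90b1, Manf, Syvn1, Edem1, Sec61a1, Atf4 and Atf6, which span disulfide isomerases, lectin-type folding sensors, the ER Hsp90, degradation factors, the translocation channel and a pair of stress transcription factors. Creld2 had the largest liver effect of the list (-2.21 ± 0.27) and a brain effect of -0.31 ± 0.16, with 12.6, 12.6 and 10.9 CPM in brain controls and 7.95, 9.82 and 11.2 CPM after heat. For Manf and Hsp90b1 the brain effects were -0.087 ± 0.11 and -0.092 ± 0.13 beside liver effects of -1.32 ± 0.30 and -0.97 ± 0.21.

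Members of the same pathway that did not pass an unadjusted p under 0.05 in the additive fit included Xbp1, the transcription factor spliced by Ire1 (-0.078 ± 0.10), Ddit3, which encodes the death-associated factor Chop (0.03 ± 0.14), P4hb, an abundant disulfide isomerase (-0.062 ± 0.12), and Ppib, a prolyl isomerase (-0.02 ± 0.11). In brain the groups of the transcription factors did not overlap, with 74.7, 80.2 and 75.8 CPM in controls and 67.8, 69.7 and 67.5 CPM after heat for Xbp1 and 24, 25.2 and 23.2 against 30.1, 27.5 and 26.6 CPM for Ddit3. The effects were -0.16 ± 0.096 in brain and 0.018 ± 0.20 in liver for Xbp1, and 0.23 ± 0.11 and -0.19 ± 0.25 for Ddit3. Herpud1, a degradation factor, had effects of opposite sign, -0.22 ± 0.17 in brain and 0.53 ± 0.22 in liver. Read counts per gene do not show the splicing of Xbp1. Derl3 and Fkbp2 of the same list did not meet the count filter in both tissues.

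**Figure D2:**
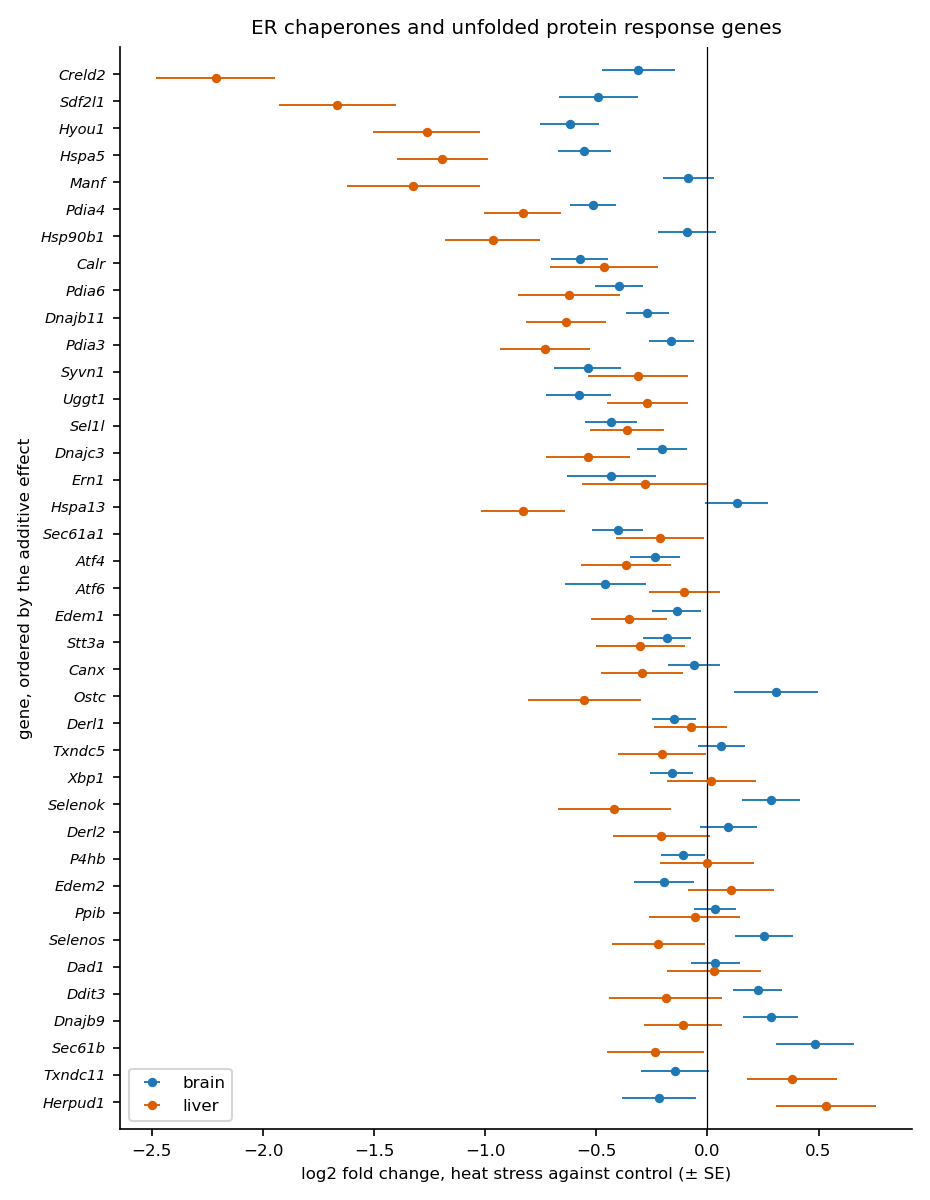
Log2 fold change of heat stress against control with its SE for each of the 39 ER chaperone and unfolded protein response genes, in brain (blue) and liver (orange), 3 control and 3 heat stress libraries in each. From Creld2 down to Dnajc3 both points lie left of 0, with the liver point further left for Creld2, Sdf2l1, Hyou1, Hspa5 and Manf.

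The promoters of the ER genes were read because these genes moved together. The ER stress element, the sequence through which Atf6 acts with the CCAAT-binding factor NF-Y, was searched as CCAAT and CCACG separated by 9 bases, on both strands, in the 250 bases before the RefSeq gene start (GRCm38.p6). It was found in 37 of 32851 promoter windows (0.113%) and in 14 of the 9075 genes tested that had a window (0.154%). Among the 39 ER genes, 32 had a window and 8 of them held the element (25%): 7 of the 15 genes with a window among the 19 that were lower (46.7%), and 1 of the 17 among the other members (5.88%), namely Canx. The 7 were Hspa5, Hsp90b1, Calr, Pdia6, Dnajc3, Creld2 and Syvn1. Pdia4 and Sdf2l1 have a window without these letters at this spacing. The elements of 6 of these genes are given with 20 bases on either side, read along the gene's own strand, because they show the element that 7 of these 15 lower genes hold. Capitals mark CCAAT and CCACG, or ATTGG and CGTGG where the element lies on the opposite strand.
Hspa5 chr2:34772005-34772063 (+ strand): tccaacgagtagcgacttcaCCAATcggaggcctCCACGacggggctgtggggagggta
Hsp90b1 chr10:86705618-86705676 (- strand): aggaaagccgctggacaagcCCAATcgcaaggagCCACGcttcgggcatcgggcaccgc
Hsp90b1 chr10:86705513-86705571 (- strand): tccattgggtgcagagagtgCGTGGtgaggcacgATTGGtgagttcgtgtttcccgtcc
Pdia6 chr12:17266471-17266529 (+ strand): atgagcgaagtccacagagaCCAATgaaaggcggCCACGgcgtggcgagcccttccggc
Dnajc3 chr14:118937807-118937865 (+ strand): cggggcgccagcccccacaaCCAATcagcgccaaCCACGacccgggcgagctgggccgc
Creld2 chr15:88819500-88819558 (+ strand): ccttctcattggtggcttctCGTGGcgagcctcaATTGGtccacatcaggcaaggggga
Syvn1 chr19:6046512-6046570 (+ strand): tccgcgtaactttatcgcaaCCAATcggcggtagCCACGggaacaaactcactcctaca
Hsp90b1 has a pair of elements, and the element of Syvn1 starts 44 bases before the gene start, the closest of these. The element of Hspa5 starts 65 bases before the RefSeq start, which lies inside the longer GENCODE span given above. CCACG alone was in 11 of the 15 lower ER genes (73.3%) and in 12 of the 17 other members (70.6%), against 47.6% of the genes tested. No test was made of these shares, since the members were sorted by their values, and a match does not show binding.

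Cytosolic chaperones were lower as well. Of 32 cytosolic heat shock genes tested, 10 (31.2%) were lower and 0 higher at an unadjusted p under 0.05 in the additive fit, against 4.5% and 3.95% of all genes, with a median log2 fold change of -0.186 in brain and -0.226 in liver. In brain on its own 7 of the 32 were lower and 2 higher, where 11.5% and 11.7% of all genes were. In liver 9 were lower and 0 higher, where 2.76% and 2.74% were. Only 2 were lower in each tissue, against 0.318% of all genes. Of the 32 genes, 17 had effects below 0 in both tissues, against 22.4% of all genes, and 3 (Hsph1, Fkbp4 and Hspa4) had groups that did not overlap in either tissue and lower values after heat, against 0.645% of all genes. Averaged over the list, the brain heat stress libraries stood at -0.15, -0.151 and -0.178 against -0.025 to 0.016 in controls, and the liver heat stress libraries at -0.361, -0.136 and -0.273 against -0.0586 to 0.102. Liver heat stress replicate 2, the library with the most muscle transcripts, was the least lowered, and without it 16 members were lower, where 7.09% of all genes were. Without it and liver control replicate 1 the number was 12, where 6.02% of all genes were lower.

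Hsph1 (chromosome 5, 149614287 to 149636376, minus strand), the cytosolic Hsp110 and nucleotide exchange factor of Hsp70, had 278, 245 and 251 CPM in brain controls and 219, 180.5 and 209.8 CPM in brain heat stress libraries. The liver values were 66.1, 82.3 and 74.5 CPM in controls and 29.4, 24.9 and 31.7 CPM after heat. The effect was -0.34 ± 0.12 in brain and -1.37 ± 0.18 in liver, and the difference of -1.03 ± 0.20 had an adjusted interaction p of 0.176 (edgeR). Fkbp4, a co-chaperone of Hsp90 and steroid receptors, had 119, 108 and 120.4 CPM in brain controls against 98, 85.3 and 89.3 CPM, and 381, 263 and 243 CPM in liver controls against 162, 227 and 185 CPM, an additive log2 fold change of -0.49 ± 0.13. Stip1, which links Hsp70 and Hsp90, was at -0.40 ± 0.11.

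The inducible Hsp70 genes, the usual readout of acute heat shock, did not pass as higher in either tissue. Hspa1b had 8.83, 5.78 and 3.25 CPM in brain controls and 1.69, 3.44 and 3.4 CPM in brain heat stress libraries, and 5.72, 2.09 and 3.06 CPM against 2.7, 1.95 and 4.47 CPM in liver. The effect was -1.07 ± 0.38 in brain and -0.26 ± 0.44 in liver, and the groups overlapped in both tissues. Hspa1a, nearly identical in sequence to Hspa1b so that reads can be split between them, had 120, 63 and 57 counts in brain controls, 37, 40 and 34 counts in brain heat stress libraries, and 1 to 5 counts in every liver library, which was too few for the test. Hsp90aa1, the inducible cytosolic Hsp90, counts among the 10 lower genes through liver alone, with 767, 1025 and 922 CPM in brain controls and 1127, 990.4 and 830.3 CPM after heat, but 286, 377 and 355 CPM in liver controls and 116, 144 and 86.4 CPM after heat (0.13 ± 0.17 in brain and -1.56 ± 0.22 in liver, adjusted p = 0.114 for the interaction, edgeR). Hsf1 itself was at -0.24 ± 0.13 in the additive fit. None of the 15 mitochondrial and TRiC chaperonins passed an unadjusted p under 0.05, and their median was -0.00318.

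**Figure D3:**
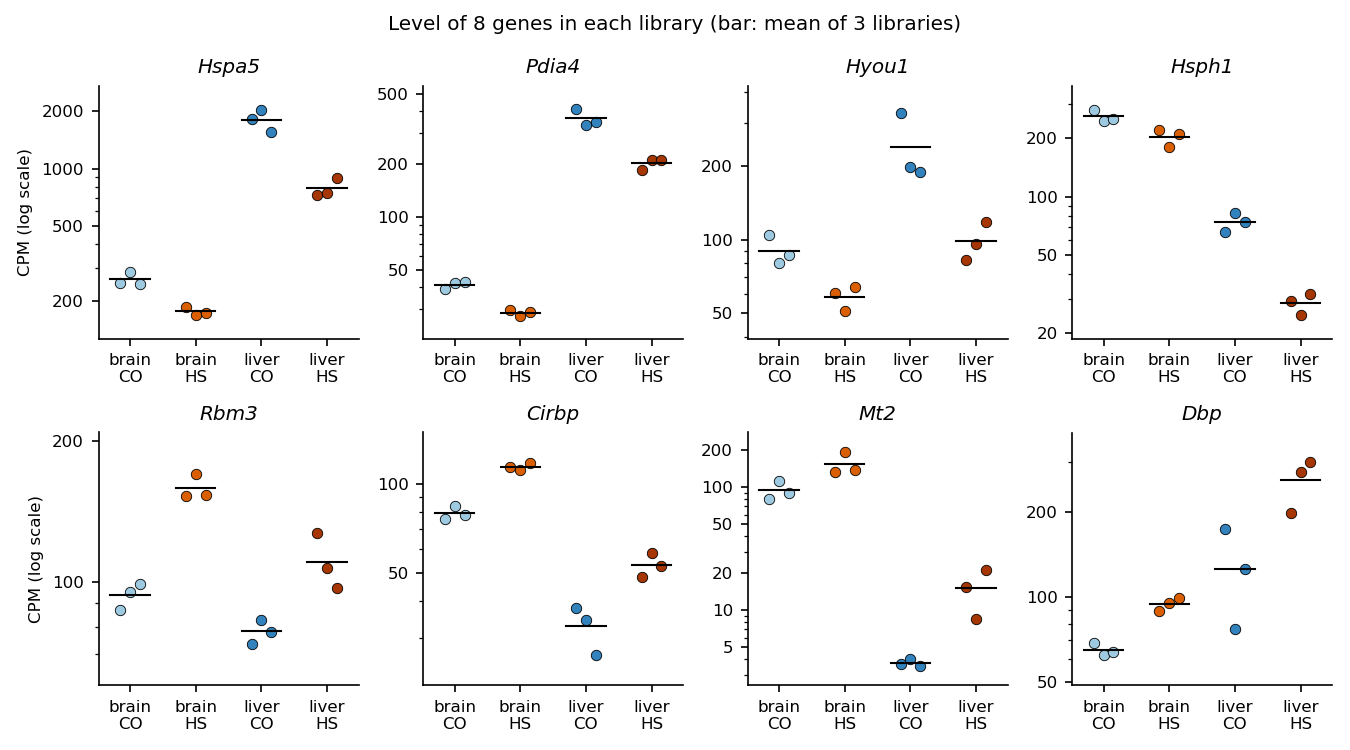
Level of 8 genes in each of the 12 libraries in CPM on a log axis, for control (CO) and heat stress (HS) in brain and liver, with a bar at the mean of the 3 libraries. In each panel the HS points lie on the same side of the CO points of their tissue without overlap, below for Hspa5, Pdia4, Hyou1 and Hsph1 and above for Rbm3, Cirbp, Mt2 and Dbp.

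Rbm3 and Cirbp were higher in both tissues. Rbm3 (chromosome X, 8138975 to 8145880, minus strand) had 87.2, 95.3 and 98.7 CPM in brain controls and 153, 170.3 and 153 CPM in brain heat stress libraries, and 73.7, 83 and 78.1 CPM in liver controls against 127, 107 and 96.9 CPM after heat. Its additive log2 fold change was 0.63 ± 0.1, a 1.55-fold higher level (adjusted p = 0.0638, edgeR), with 0.77 ± 0.11 in brain and 0.50 ± 0.17 in liver. Cirbp (chromosome 10, 80165985 to 80172786, plus strand) had 75.6, 83.9 and 78.3 CPM in brain controls and 114, 111 and 117 CPM after heat, and 37.9, 34.5 and 26.4 against 48.3, 58.1 and 52.6 CPM in liver. The additive effect of Cirbp was 0.60 ± 0.10, or 1.52-fold (adjusted p = 0.0704, edgeR). The heat stress libraries of both genes lay above all controls of their tissue. These were the only 2 of 9 tested members of the temperature-sensitive RNA-binding list at an unadjusted p under 0.05 (3.95% of all genes were higher and 4.5% lower), where the splicing kinases Clk1 and Clk4 and the splicing factors Srsf2 and Srsf5 had additive effects between -0.086 and 0.093.

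Among 18 core clock genes, 7 (38.9%) were higher and 3 (16.7%) lower at an unadjusted p under 0.05 in the additive fit, where 3.95% and 4.5% of all genes were. The median of the list was -0.0117 in brain and 0.427 in liver. Averaged over the list, the brain heat stress libraries (-0.00325, -0.0407 and 0.097) lay within the brain controls (-0.184 to 0.122). In liver they stood at 0.222, 0.425 and 0.426 against -0.201 to 0.138 in controls. Dbp, an output gene activated by Clock and Bmal1, had 68.6, 61.9 and 63.5 CPM in brain controls and 89.2, 94.8 and 99.4 CPM after heat, and 174, 77 and 125 CPM in liver controls against 198, 276 and 300.3 CPM. Its additive log2 fold change was 0.79 ± 0.18 (adjusted p = 0.371, edgeR). Bhlhe41, a repressor in the clock, had 41.8, 41 and 47.8 CPM in brain controls against 56.8, 48.9 and 50.8 CPM and 5.72, 4.32 and 9.03 CPM in liver controls against 23, 29.8 and 26.6 CPM. Its liver effect of 2.07 ± 0.27 stood beside a brain effect of 0.27 ± 0.11 (adjusted p = 0.0677 for the interaction, edgeR). Ciart, another repressor, was at 0.55 ± 0.21 in brain and 1.40 ± 0.40 in liver, with 0.347 to 0.74 and 1.1 to 2.27 over the settings. Arntl, which encodes Bmal1, the activator that drives these genes, was lower, with 35.2, 26.4 and 28.6 CPM in brain controls and 20.1, 20.2 and 22.7 CPM after heat, and 6.52, 9.61 and 4.03 against 2.32, 3.79 and 1.63 CPM in liver, an additive effect of -0.83 ± 0.22. Groups of Dbp, Bhlhe41, Ciart and Arntl did not overlap in either tissue, by a narrow margin for Ciart in brain (highest control 14.35 CPM, lowest heat stress library 14.8 CPM) and in liver (14.99 and 15.51 CPM), for Bhlhe41 in brain (47.78 and 48.93 CPM) and for Arntl in liver (lowest control 4.03 CPM, highest heat stress library 3.79 CPM).

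Among the other clock genes at an unadjusted p under 0.05, Tef, Nr1d2 and Per1 were higher, and Nfil3 and Clock lower. Several of these rested on 1 tissue: Per1, a repressor that light and glucocorticoids also induce, was at 0.018 ± 0.21 in brain and 1.24 ± 0.29 in liver, and Clock at -0.012 ± 0.097 and -0.71 ± 0.21. Per2 was near 0 in both tissues (-0.016 and 0.0088), Nr1d1 was at -0.26 ± 0.15 in brain and 0.61 ± 0.26 in liver, and Bhlhe40 at -0.36 ± 0.15 and 0.54 ± 0.21. The sources used here give no clock time for tissue collection by group, and the part of collection time in these values was not tested. The E-box CACGTG, the site of the Clock and Bmal1 pair, was present in the windows of 5 of the 15 clock genes that had one (33.3%), against 10.4% of the genes tested and 6.02% of all windows. The window of Ciart, shown with its E-boxes in capitals, holds 3 of them in 250 bases.
Ciart chr3:95882229-95882478 (- strand): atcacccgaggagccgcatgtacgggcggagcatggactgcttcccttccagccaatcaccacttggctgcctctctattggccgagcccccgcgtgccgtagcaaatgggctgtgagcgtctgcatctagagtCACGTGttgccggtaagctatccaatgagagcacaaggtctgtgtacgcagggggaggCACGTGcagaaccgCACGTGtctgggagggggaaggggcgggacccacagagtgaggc
The letters are those searched on both strands (CACGTG reads the same on each), and no test was made.

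Mt1 and Mt2, metallothioneins that bind zinc and copper, were higher in both tissues, though the brain groups of Mt1 overlapped. Mt3 of the same list did not meet the count filter in both tissues. It had 3703, 4569 and 3571 counts in brain controls and 3848, 5473 and 4013 counts after heat. Mt2 (chromosome 8, 94172664 to 94173568) had 79.9, 113 and 90 CPM in brain controls and 132, 194 and 137 CPM after heat, and 3.66, 4.04 and 3.55 CPM in liver controls against 15.3, 8.55 and 21.3 CPM. The additive log2 fold change of Mt2 was 1.20 ± 0.25 (adjusted p = 0.272, edgeR), with 1.65-fold in brain and 4.02-fold in liver. Over the settings the brain log2 fold change of Mt2 ran from 0.292 to 0.871 and that of Mt1 from 0.169 to 0.551. Mt1, its neighbour on the chromosome, had 149, 187 and 142 CPM in brain controls and 185, 256 and 195 CPM after heat, where the lowest heat stress library fell within the control range, and 13, 8.21 and 8.55 against 47.5, 38.4 and 66.6 CPM in liver. For Mt1 the effects of 0.42 ± 0.16 in brain and 2.35 ± 0.26 in liver had an adjusted interaction p of 0.091 (edgeR). The zinc transporters did not follow: of the 16 members of the metallothionein and zinc list tested, the other genes at an unadjusted p under 0.05 were Slc39a10 (-0.45 ± 0.15) and Slc30a10 (-0.45 ± 0.17), both lower, and Slc30a10 was so in liver alone (0.088 ± 0.13 in brain and -0.95 ± 0.17 in liver).

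Mt1 and Mt2 also respond to glucocorticoids, and of 19 glucocorticoid target genes 4 (21.1%) were higher and 0 lower at an unadjusted p under 0.05, namely Mt2, Mt1, Fkbp5 and Per1, against 3.95% of all genes higher. In brain on its own 2 of the 19 were higher and 3 lower, where 11.7% and 11.5% of all genes were, and in liver 4 were higher and 3 lower, where 2.74% and 2.76% were. Fkbp5, a co-chaperone of the glucocorticoid receptor, had 21.2, 21.4 and 21.1 CPM in liver controls and 29.9, 29.7 and 34.2 CPM after heat, but 31.1, 38.6 and 29.2 against 31.3, 34.3 and 39.8 CPM in brain, where the groups overlapped. Other targets were below 0 in liver, among them Tsc22d3 (Gilz, an anti-inflammatory target) at -0.82 ± 0.20 and Ddit4, an inhibitor of mTORC1, at -1.35 ± 0.41, beside 0.15 ± 0.15 and -0.027 ± 0.14 in brain. The median of the list was 0.0183 in brain and 0.249 in liver. Over the settings it ran from -0.0646 to 0.0584 in brain and from 0.0651 to 0.316 in liver. The additive median was 0.109, and -0.0463 without the 2 muscle-bearing libraries.

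Among the interferon-stimulated genes several were higher in the additive fit, but no member passed in each tissue. Of 35 tested, 10 (28.6%) were higher and 0 lower at an unadjusted p under 0.05 in the additive fit, where 3.95% of all genes were higher, 21 had effects above 0 in both tissues, against 23.7% of all genes, and the median was 0.131 in brain and 0.33 in liver. In brain 4 of the 35 were higher at this threshold, where 11.7% of all genes were, and in liver 7, where 2.74% were. Irf7, the regulator of type I interferon, had 40.8, 36.2 and 31.9 CPM in liver controls and 97.7, 69.9 and 72 CPM after heat but 2.73, 2.81 and 2.5 against 2.88, 3.68 and 2.35 CPM in brain, while Ifit1, an antiviral RNA-binding protein, had 3.75, 3.54 and 4.16 against 7.87, 11.8 and 5.05 CPM in brain and 9.5, 10.6 and 16.1 against 23.3, 16.4 and 8.81 CPM in liver. Averaged over the list, brain heat stress replicate 3 (-0.209) and liver heat stress replicate 3 (-0.172) lay below all controls of their tissue, and the other heat stress libraries (0.232 and 0.529 in brain, 0.64 and 0.369 in liver) lay above them. Markers of microglia and macrophages (8 genes) summed to 112, 138 and 162 CPM in liver controls and 222, 162 and 132 CPM after heat. In brain they summed to 331, 348 and 295 CPM in controls and 310, 356 and 318 CPM after heat. The part of these cells in the interferon values was not tested. Ifit3 and Ifit3b are near-identical copies whose reads can be split between them.

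Il15, a cytokine that maintains natural killer and memory T cells, was higher and was named for groups apart in both tissues. It had 1.27, 1.28 and 1.51 CPM in brain controls and 2.37, 2.7 and 2.09 CPM after heat. In liver it had 3.2, 3.34 and 3.71 CPM in controls against 5.79, 5.62 and 4.47 CPM. The additive effect of Il15 was 0.72 ± 0.16 (adjusted p = 0.371, edgeR). Arhgdib, a gene abundantly expressed in blood cells, was at 0.49 ± 0.13. Beside these, 7 T and NK cell markers summed to 4.37 to 5.66 CPM in brain controls and 7.45 to 19.4 CPM in brain heat stress libraries, and to 2.63 to 5.45 CPM in liver controls and 10.8 to 17.7 CPM in liver heat stress libraries. In brain the sum came mainly from Cd4 (3.28 to 5.25 CPM in controls, 13.5, 5.38 and 18.8 CPM after heat), while Cd3g and Gzma were at 0 in several brain libraries and at most at 0.359 and 0.0897 CPM in the others. In liver Ccl5 had the highest level of the 7 in each heat stress library (0.513, 1.16 and 1.72 CPM in controls, 6.39, 4.65 and 4.54 CPM after heat). Of the 7 markers only Cd4 met the count filter in both tissues. The part of these cells in the Il15, Arhgdib and interferon values was not tested.

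Genes of the NRF2 response, which covers glutathione and iron defence, were higher in 5 of 29 cases (17.2%) and lower in 0 at an unadjusted p under 0.05 in the additive fit, where 3.95% of all genes were higher. In brain alone 4 of the 29 were higher, near the 11.7% of all genes. Gstp1, a glutathione transferase, had 84, 99.7 and 97.8 CPM in brain controls and 126, 106 and 105 CPM after heat, and 1192, 1012 and 1250 against 1784, 1679 and 2447 CPM in liver, with groups apart in both (0.52 ± 0.14). The others were Ftl1, Nqo1, Hmox1 and Gstm2, with additive effects from 0.38 to 0.53. Core NRF2 targets such as Txnrd1 (-0.016 ± 0.089), Srxn1 (-0.016 ± 0.095) and Gclc (0.12 ± 0.11) did not pass this threshold.

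The largest additive count came from the cytosolic ribosomal proteins, and it rested on brain. Of 80 genes, 37 (46.2%) were higher and 0 lower at an unadjusted p under 0.05 in the additive fit and 77 had effects above 0 in both tissues, against 3.95% and 23.7% of all genes. At this threshold 75 were higher in brain, where 11.7% of all genes were, and 0 in liver, where 2.74% were. The median was 0.672 in brain and 0.263 in liver. Averaged over the list, brain heat stress libraries stood at 0.599, 0.983 and 0.473 against -0.35 to 0.366 in controls, whereas in liver the heat stress libraries (0.625, -0.372 and 0.509) overlapped the controls (-0.48 to 0.486), and in each liver group the library with muscle transcripts was the lowest. Without the 2 muscle-bearing libraries 13 of the 80 genes were higher in liver at an unadjusted p under 0.05, against 6.1% of all genes. Short transcripts were higher in brain heat stress libraries in general: across 11180 genes the Spearman correlation of transcript length with the log2 fold change was -0.407 in brain and -0.101 in liver, and the additive median of the ribosomal list moved from 0.467 to 0.317 with a length and GC correction. Many ribosomal protein genes have processed pseudogenes that can share their reads. Against 3.95% of all genes higher in the additive fit, nuclear oxidative phosphorylation subunits (7 of 77 higher, 9.09%, median 0.464 in brain and 0.0391 in liver) and mitochondrial ribosomal proteins (6 of 78 higher, 7.69%, 0.262 and -0.0218) had medians further from 0 in brain than in liver, and with the length and GC correction their brain medians were 0.128 and 0.109.

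Several lists stood on opposite sides of 0 in the tissues. Collagens and basement membrane genes had a median of -0.429 in brain and 0.2 in liver, LDL receptor family genes -0.447 and 0.0327, plexins and semaphorins -0.296 and 0.0534, and immediate early genes -0.23 and 0.423. Without the 2 liver libraries that carry muscle transcripts the liver median of the immediate early genes was -0.16. With the length and GC correction the brain medians were -0.249 (collagens), -0.251 (LDL receptor family), -0.117 (plexins and semaphorins) and -0.22 (immediate early genes). Over the settings the liver medians of the LDL receptor (-0.129 to 0.282) and plexin (-0.0703 to 0.237) lists crossed 0. The medians of the collagen list ran from 0.037 to 0.323 in liver and from -0.657 to -0.249 in brain. In brain the endothelial markers summed to 68.9 to 134 CPM in controls and 53.2 to 72.1 CPM after heat, and in liver to 94 to 112 and 112 to 128 CPM, and the part of endothelial cells in the collagen values was not tested. Of the sterol and fatty acid synthesis genes 2 of 34 were lower (5.88%) and of the autophagy and lysosome genes 1 of 42 was higher (2.38%), near the 4.5% and 3.95% of all genes. Of these 42 autophagy and lysosome genes 7 were lower in brain alone and 4 higher in liver alone, where 11.5% and 2.74% of all genes were. Without the 2 muscle-bearing libraries 10 of the 42 (23.8%) were higher in liver, against 6.1% of all genes.

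**Figure D4:**
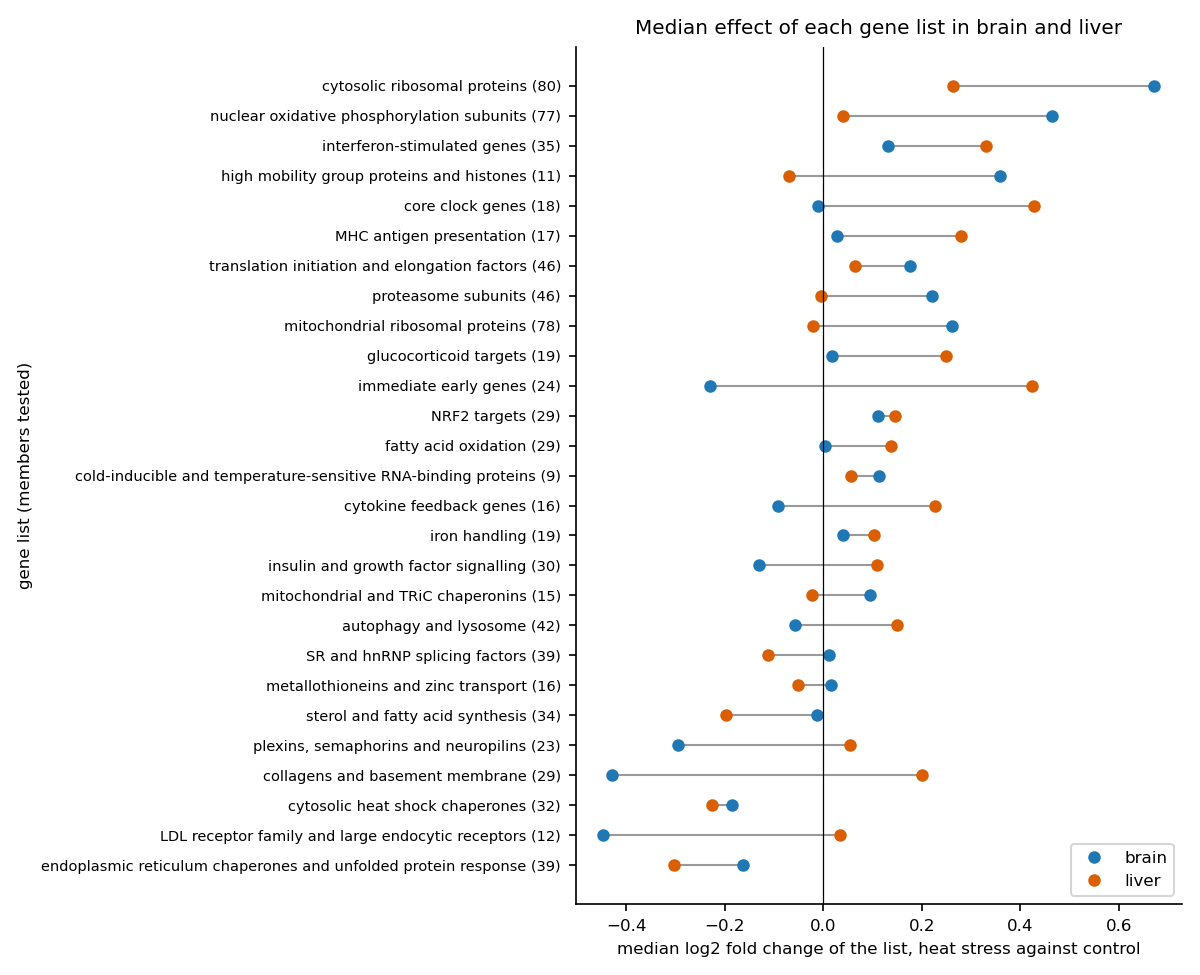
Median log2 fold change of heat stress against control over the tested members of each of 27 gene lists, in brain (blue) and liver (orange), with the number of members in brackets. The ER and cytosolic chaperone lists are below 0 by more than 0.1 in both tissues, and the interferon, NRF2 and ribosomal lists above 0 by more than 0.1 in both. Over the settings the lowest medians of these were 0.0179 (interferon, brain), 0.0499 (interferon, liver), -0.0148 (NRF2, brain) and -0.0548 (ribosomal, liver). Collagens, LDL receptors and immediate early genes have medians of opposite sign as plotted, which for immediate early genes turns without the 2 muscle-bearing libraries (-0.16 in liver).

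Outside these lists, Paqr9, a membrane protein of the progestin and adipoQ receptor family, was lower in both tissues, with 67.2, 51.7 and 48.7 CPM in brain controls and 36.6, 30 and 41.1 CPM after heat, and 629, 579 and 559.5 CPM in liver controls against 353, 350.4 and 285 CPM (-0.74 ± 0.12, adjusted p = 0.0638, edgeR). Mdn1, the midasin ATPase that acts in assembly of the large ribosomal subunit, had 61.1, 60.1 and 67.4 against 46, 40.5 and 47.7 CPM in brain and 17.2, 18.8 and 19.7 against 13, 13.3 and 11.4 CPM in liver (-0.52 ± 0.093, adjusted p = 0.0974, edgeR). The nucleolar ribosome factor Rbm28 was likewise lower (-0.43 ± 0.11), as were the tubulin acetyltransferase Atat1 (-0.48 ± 0.10), the gamma-tubulin complex member Tubgcp4 (-0.41 ± 0.10), the neutral amino acid transporter Slc1a4 (-0.70 ± 0.18), Sgsm1 (-0.66 ± 0.17) and Fam13b (-0.39 ± 0.094). In all of these the groups did not overlap in either tissue, which was a condition for naming them and gives no support of its own. Among all genes 0.645% were lower in this way. In liver Sgsm1 was low, at 4.69, 2.23 and 2.42 CPM in controls and 1.16, 1.71 and 1.63 CPM after heat. These heat stress values lie near the count filter, which can favour a difference in this direction. With the length and GC correction the additive log2 fold change of Mdn1 was -0.33 (adjusted p = 0.318, edgeR).

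On the higher side, Cebpb, a transcription factor of the acute phase response, had 4.25, 5.3 and 4.69 CPM in brain controls and 5.67, 6.05 and 5.92 CPM after heat, and 127, 109 and 84 against 156, 238 and 232 CPM in liver, an additive effect of 0.70 ± 0.16 (adjusted p = 0.371, edgeR). Rasgrp2, an activator of the small GTPase Rap1, was at 0.56 ± 0.14, and Trappc4, a subunit of the TRAPP vesicle tether, at 0.35 ± 0.09. Over the settings the additive effect of Trappc4 ran from 0.224 to 0.381 and its brain effect from 0.154 to 0.435. Alkbh6, Ppp2r2d (a regulatory subunit of protein phosphatase 2A), Fam76a, Pold4 (a subunit of DNA polymerase delta) and Dedd2 had additive effects between 0.31 and 0.49, and their adjusted p was 0.399 by edgeR. Brain levels of Pold4 were 3.75, 4.66 and 4.69 CPM in controls and 5.58, 5.81 and 5.49 CPM after heat.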

How the data were processed

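RNA was sequenced from 6 brain and 6 liver samples of mice (3 control and 3 heat stress each). The authors deposited 1 table of raw read counts per gene. Per the labels, reads were trimmed with Trimmomatic 0.39, aligned to mm10 with HISAT2 2.2.1 and counted with featureCounts of Subread 2.0.1, while the methods also describe Tophat2 and HTSeq, so which made the table is not settled. The libraries were made from polyadenylated RNA with a stranded kit, and the counting strand is not given in the sources used here. The deposited tables of the authors' own comparisons hold fold changes and p-values and were not used. Genes passing filterByExpr (minimum count 10, total 15) in each tissue were kept. The main test was edgeR 4.0.16 (R 4.3.3, TMM, robust quasi-likelihood) with tissue as a covariate and Benjamini-Hochberg adjustment. SE was taken from the log2 fold change and the F statistic. Fits within each tissue and an interaction fit used the same genes. CPM are relative to the TMM-normalized total of the tested genes, except marker values and sums, which are relative to all counts. A count of 0 allows a share of up to 1.92e-05% to 2.87e-05% of a library (3 counts), counting error only. DESeq2 1.42.0 and limma 3.58.1 were alternatives. Gene positions are from GENCODE M21 (GRCm38).

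Named genes were, in each direction, the 15 with the smallest additive p among those with non-overlapping groups of the same direction in both tissues, up to 4 members of each list by p, and Rbm3, Cirbp and Tfrc. For genes named by the first of these rules non-overlap was fixed by the choice and is no support. A further clause, on genes past adjustment, named none. Other list members and Dusp4 were named after their values were seen. The genes, lists and tests were chosen with earlier results of these data known. The methods give 3 animals a group but do not tie libraries to animals, so p-values measure the spread between these samples. No set test was run. Some list members are counted but not reported by name here.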

Additional observations from a re-analysis of the deposited data

Results flagged for a closer look

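The effect of heat differed between the tissues beyond an adjusted interaction p of 0.05 (edgeR, 11322 genes) for 2 genes. Tfrc, the transferrin receptor that takes up iron, had 124, 115 and 120.5 CPM in brain controls and 154, 164 and 139.9 CPM after heat, but 91.6, 119.9 and 110.3 CPM in liver controls and 47.2, 28.3 and 40.5 CPM after heat. Its log2 fold change was 0.36 ± 0.11 in brain and -1.47 ± 0.22 in liver, a difference of -1.82 (adjusted p = 0.0385, edgeR). Dusp4, a phosphatase of MAP kinases, had 7.62, 9.08 and 7.26 CPM in brain controls and 3.64, 5.07 and 5.14 CPM after heat, and 1.03, 0.696 and 1.45 CPM in liver controls against 3.35, 3.79 and 4.2 CPM, a difference of 2.63 (adjusted p = 0.0486, edgeR). In liver Dusp4 met the count filter through the heat stress libraries, where it was higher, and its controls were at low counts. The filter thus favoured a liver difference in this direction, and the p-value does not allow for that. For Tfrc the groups did not overlap in either tissue. The same held for Dusp4, but in liver its separation was partly fixed by the filter and gives no support. A replicate block paired control and heat stress libraries of the same number within each tissue, though they come from different mice. With this block the adjusted p was 0.587 for both (edgeR). With single libraries left out it ran from 0.0119 to 0.235 for Tfrc and from 0.0365 to 0.235 for Dusp4.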

How the results depend on the processing

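At an adjusted p under 0.05 the additive fit called 0 genes higher and 0 lower under edgeR with RLE, upper quartile or within-tissue TMM factors, with no filter or a filter passed in 1 tissue, without robust estimates, with the suffix as covariate, without the 2 muscle-bearing libraries and without any single library. Other settings called a few genes higher and lower: 7 and 17 with DESeq2 (3 and 2 of them past a log2 fold change of 1), 1 and 3 with limma voom, 2 and 3 with a stricter count filter, 3 and 4 (1 lower past the fold) with the length and GC correction, 0 and 1 with library size only, and 2 and 0 (both past the fold) with the mean of brain and liver per replicate number. With a correlation between brain and liver of the same number in limma voom 0 were called and the smallest adjusted p was 0.0504. Genes higher in both tissues separately numbered 20, with 11 under library size only, 47 without the 2 muscle-bearing libraries and 10 to 48 when single libraries were left out (12 without liver control replicate 1, 32 without liver control replicate 2, and 10, 48 and 13 without liver heat stress replicates 1, 2 and 3). Genes lower in both numbered 36, with 16 to 48 when single libraries were left out (16 without brain heat stress replicate 2, 23 and 22 without liver heat stress replicates 1 and 3). The number of lower members ran from 16 to 21 for the ER list and from 7 to 16 for the cytosolic heat shock list over the settings.

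Replicate numbers did not pair control with heat stress libraries, whose deviations at the same number correlated at -0.21, 0.231 and -0.0921 in brain and at -0.591, -0.514 and -0.102 in liver. Brain and liver libraries of the same number correlated at 0.353, 0.337 and 0.112 in controls, above every control pair of unlike numbers, and at 0.0496, -0.195 and 0.0368 after heat stress, as a hint of pairing in controls alone. The replicate block pairs control and heat stress libraries of the same number within a tissue, which the numbers did not bear out. It does not tie brain to liver, so it makes no allowance for shared mice. With it 0 genes were called in the additive fit (smallest adjusted p 0.945, edgeR). In that setting 10 were higher and 16 lower in both tissues separately, and 16 ER genes were lower. The difference between tissues passed for 2 named genes, for 9 with DESeq2, 5 with the length and GC correction, 4 with the suffix as covariate, and 1 with upper quartile factors, library size only, no filter, a stricter filter, a filter passed in 1 tissue or no robust estimates. It passed for 0 with the replicate block, alone or with the length and GC correction, and for 0 to 5 when single libraries were left out. The additive effect of Dusp4, a gene of opposite direction in the tissues, ran from -0.149 to 0.439, and the brain effects of Irf7 (-0.032 to 0.301), Alkbh6 (-0.0631 to 0.268) and Gstp1 (-0.0148 to 0.32) also crossed 0 over the settings. The causes were not tested. With 3 libraries a group, small effects are beyond the precision of these data.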
